A study of Arabidopsis thaliana with 6 samples.

Results

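The wild-type transcriptome of Arabidopsis thaliana seedlings 1 day old was described from the 3 libraries of the accession Col-0. Genes were included when they held at least 10 counts in each of the 3 libraries, and were ranked by their mean level in CPM (a gene's count divided by the library total and multiplied by 1000000). The condition was met by 738 of the 33602 genes listed, or 2.2%. The seedlings were wild type, carried no transgene named in the labels, and were sampled whole. Seeds had first been kept dark at 4 °C for 3 days and were then germinated on plates of 1/2 Murashige and Skoog medium at 22 °C with 16 h of light and 8 h of dark. The series, 6 libraries in all, also holds 3 libraries of the mutant line vil1-1, and its design text calls the 3 libraries of a genotype biological replicates. The labels do not say how many seedlings were pooled, so the spread between libraries is that between these 3 preparations.

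A seed that has just germinated lives on what the embryo stored. Oil is broken down by beta-oxidation in the peroxisome, the acetyl units pass through the glyoxylate cycle, and gluconeogenesis turns the products into sugar until the cotyledons photosynthesise. At the same time gibberellin promotes germination and growth, cells of the hypocotyl and radicle expand by loosening their walls, and new ribosomes are made.

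The 3 libraries were shallow, with 48868, 66546 and 64554 gene counts in replicates 1, 2 and 3, and 7946, 9015 and 8887 genes detected in them. 1 count equalled 15.0 to 20.5 CPM, and a count of 0 allows a level of up to 45.1 to 61.4 CPM in 1 library, for counting error only. A count was found for 12731 genes in any of the 3 libraries and for 4894 in all 3, of which the 738 genes described here are 15.1%. No count fell on a chloroplast or mitochondrial gene. Transcripts of the genome of the plastid and of the mitochondrion are therefore not described here.

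The described genes had mean levels between 170 and 21884 CPM, with a median of 417 CPM. Together they held 63.7%, 62.9% and 63.0% of the counts in replicates 1, 2 and 3, and the other 11993 detected genes held the rest. The 10 genes of highest mean level held 13.7 ± 0.18% of a library (SD, n = 3), the leading 50 held 27.4 ± 0.34% and the leading 100 held 34.8 ± 0.21%. For the leading 10 the exact binomial (Clopper-Pearson) 95% intervals were 13.5 to 14.1%, 13.2 to 13.7% and 13.5 to 14% in replicates 1, 2 and 3, which overlap. A level of 1000 CPM or more was reached by 121 genes, which held 37.0 ± 0.11%. By annotation 731 of the 738 were protein-coding, 4 were ribosomal RNA loci, 2 were transcribed pseudogenes and 1 was a non-coding RNA. They lay on the 5 chromosomes in about the proportions of all annotated genes, from 25.5% on chromosome 1 against 25.4% of all genes to 13.0% on chromosome 2 against 16.6%. Genes with a single exon made up 11.1% of the protein-coding genes described and 20.6% of all protein-coding genes.

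**Figure D1:**
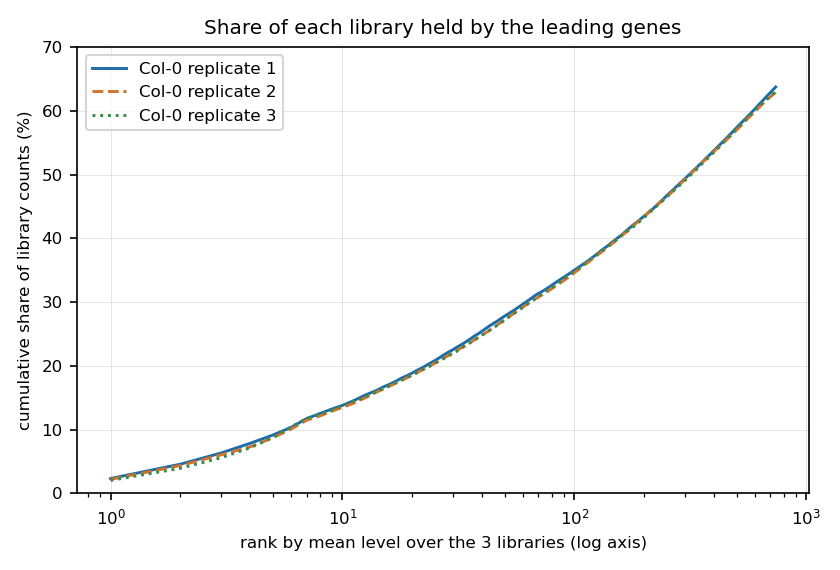
Cumulative share of each library's counts (y axis, percent) against the rank of the 738 genes by mean level (x axis, log scale), with 1 line for each of the 3 Col-0 libraries. The lines lie almost on each other and reach 63.7%, 62.9% and 63.0% at the last gene.

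A limit applies to every level given here. The authors' deposited table, which compares vil1-1 with Col-0, also lists a mean log2 CPM for each of the 738 genes. It does not name the libraries behind the mean, which may take in both genotypes, while the levels here are from Col-0 alone. For many genes the mean is far from the level in the count files. The count files gave a level more than 4-fold higher than the authors' deposited table for 220 of the 738 genes and more than 4-fold lower for 2. The 738 were chosen by their counts in the count files, so both numbers lean toward higher levels there. For 304 genes the levels were within 1 unit on the log2 scale. The cause was not tested. The authors' level or the difference is given below for each of the 738 genes that is named and differs more than 4-fold. For genes outside the 738 it is given only in part.

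Ribosomal proteins were the list of highest summed level. Genes with a ribosomal protein product name numbered 365, and 144 of them were among the 738, a share of 39.5% where 2.74% of all protein-coding genes were. Their counts summed to 160944, 165720 and 170803 CPM in replicates 1, 2 and 3, or 16.6 ± 0.49% of a library (SD, n = 3), and the authors' deposited table gives the same list 16.5%. The list includes some nuclear genes for ribosomes of the plastid and mitochondrion. The 144 had a median of 502 CPM, and 31 of them reached 1000 CPM. Per kilobase of the longest annotated transcript, their median level was 554 CPM per kb, against 266 CPM per kb for the other 587 protein-coding genes described. The limit was set on counts without regard to length, so a short transcript needs a higher level per kb to pass it. Transcripts of the 144 had a median of 993 bases, against 1455 for all 731 protein-coding genes described. The limit therefore leans this comparison toward the 144. The authors' deposited table holds 352 of the 365 genes. Several lists described below differed far more between the sources. Translation factors summed to 40503 CPM here and 13472 CPM there, and tubulins and actins to 19837 and 7133 CPM. Gibberellin genes summed to 5973 and 411 CPM, and the glyoxylate cycle list to 11988 and 24171 CPM. The methionine cycle list was close, with 6919 and 7067 CPM. For each list below, the number of genes among the 738 is to be read beside the 2.74% of all protein-coding genes.

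The gene of highest level was AT5G56710, which encodes a protein of the L31e family of the large ribosomal subunit. It had 1140, 1464 and 1312 counts in replicates 1, 2 and 3, or 21884 ± 1505 CPM, and led per length as well with 29101 CPM per kb. The gene emb2171, of the L14p/L23e family, had 860, 1116 and 1070 counts (16981 ± 543 CPM). The first was highest in replicate 1, at 23328, 22000 and 20324 CPM, with an index of dispersion of 5.91 (chi-square over its degrees of freedom, on average 1 for counting error alone), and the second had an index of 0.93. Both were lower in the authors' deposited table, by 3.07 and 3.06 log2 units. AT2G19730, of the L28e family, had 280, 391 and 476 counts (6326 ± 910 CPM), with replicate 3 above the other two. STV1, a large-subunit protein known for its part in translating mRNAs with upstream open reading frames, had 229, 383 and 365 counts (5365 ± 590 CPM), with replicate 1 below the other two. AT2G19730 and STV1 were 2.41 and 2.27 log2 units lower in the authors' deposited table. Of the leading 30 genes by CPM 7 were ribosomal protein genes, and the remaining 3 were AT2G47610 at 4088 ± 349 CPM, AT4G16720 at 3728 ± 266 CPM and RPS5B, for a small-subunit protein, at 3686 ± 397 CPM. The authors' deposited table gives RPS5B 467 CPM. Most ribosomal proteins of Arabidopsis are encoded by several near-identical genes. The sources used here do not say how reads shared by such copies were counted, so the division of counts between copies is uncertain.

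Many promoters of these genes, though not all, hold sequence motifs that the level did not choose. The telo box (AAACCCTA) and the core of the site II element (TGGGCC) are known from promoters of plant ribosomal protein genes. Both were searched on both strands from 250 bases before to 50 bases after the annotated start, and neither motif lies within the other. The telo box was found in 68 of the 144 promoters of ribosomal protein genes described here (47.2%), in 28.5% of the 221 ribosomal protein genes that did not reach 10 counts in each library, and in 6.17% of all 26711 protein-coding promoters searched. The site II core was found in 69.4%, 41.6% and 15.7% of the same sets. Both motifs together were found in 35.4%, 15.4% and 1.67%. Of the 365 ribosomal protein genes 316 had a count in at least 1 library, so the 221 include genes with none. The 365 also include nuclear genes for ribosomes of the plastid and mitochondrion. Their share in the 144 and in the 221 was not counted, so the sets may differ in that too. In the 587 other protein-coding genes described, the telo box stood in 8.52% of promoters and the site II core in 27.6%. In the 11740 protein-coding genes detected but not described, these stood in 5.31% and 20.4%. A match is a run of letters and does not show that a factor binds there. The 120 bases before the start are shown for AT2G19730 and AT2G37190, which carry a telo box, and for AT3G22230 and AT3G59540, which carry both motifs. The same stretch follows for ICL and GA3OX2, which are described later and carry neither. Sequences are from the RefSeq genome TAIR10.1 and run 5′ to 3′ on the strand of the gene. Capitals mark a telo box (AAACCCTA or TAGGGTTT) or a site II core in the first 4, and in GA3OX2 the letters TTTATA, the reverse strand of the TATA motif. The TATA motif (TATAAA) is not marked in the first 4, and the stretch of AT2G19730 ends in it. AT2G19730 is at chr2:8511366-8511485 on the plus strand, AT2G37190 at chr2:15620157-15620276 on the minus strand, AT3G22230 at chr3:7844598-7844717 on the minus strand, AT3G59540 at chr3:21996841-21996960 on the minus strand, ICL at chr3:7656054-7656173 on the minus strand and GA3OX2 at chr1:30202350-30202469 on the minus strand.
AT2G19730: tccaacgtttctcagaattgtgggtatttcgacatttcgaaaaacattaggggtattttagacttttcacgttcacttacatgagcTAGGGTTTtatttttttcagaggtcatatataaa
AT2G37190: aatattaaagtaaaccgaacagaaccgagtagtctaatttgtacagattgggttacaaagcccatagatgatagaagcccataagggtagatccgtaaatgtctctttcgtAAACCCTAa
AT3G22230: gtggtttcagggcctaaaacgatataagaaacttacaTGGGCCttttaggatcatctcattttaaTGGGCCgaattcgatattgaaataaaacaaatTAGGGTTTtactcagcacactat
AT3G59540: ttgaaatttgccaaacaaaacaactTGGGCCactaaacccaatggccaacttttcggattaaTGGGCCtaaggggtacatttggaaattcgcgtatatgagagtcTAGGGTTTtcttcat
ICL: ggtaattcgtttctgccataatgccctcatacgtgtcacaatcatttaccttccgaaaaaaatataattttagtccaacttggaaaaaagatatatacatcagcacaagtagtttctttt
GA3OX2: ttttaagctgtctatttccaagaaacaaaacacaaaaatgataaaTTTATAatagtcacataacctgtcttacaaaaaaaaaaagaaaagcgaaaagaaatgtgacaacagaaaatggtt

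The telo box of AT2G37190 ends next to the start, with its first base 9 bases before it, and that of AT2G19730 begins 34 bases before it. AT3G22230 and AT3G59540 each hold 2 copies of the site II core upstream of their telo box. AT2G37190 had 126, 179 and 174 counts (2655 ± 66.0 CPM), and AT3G22230 had 137, 153 and 171 counts (2584 ± 258 CPM). The G-box (CACGTG) stood in 8.21% of the 731 protein-coding genes described and in 7.79% of all promoters, and TATAAA stood in 52.4% and 52.6%. In the 144 ribosomal protein promoters the G-box stood in 2.78% and TATAAA in 63.2%. The RY motif of seed genes (CATGCA) stood in 6.43% of the genes described and in 9.78% of all promoters.

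Translation factors held 40503 ± 1866 CPM as a list (SD, n = 3), with 7 of 13 genes among the 738. EIF4A1, the RNA helicase of the initiation complex, had 1096, 1445 and 1225 counts (21039 ± 1822 CPM), lowest in CPM in replicate 3. FBR12, an eIF5A protein, had 675, 923 and 874 counts (13741 ± 177 CPM), and its 3 libraries lay between 13539 and 13870 CPM. Both were higher in the count files than in the authors' deposited table, by 3.27 and 2.53 log2 units. TCTP, known as a growth regulator, had 57, 83 and 119 counts (1419 ± 370 CPM), and the poly(A)-binding protein PAB4 had 58, 82 and 64 counts (1137 ± 128 CPM). Genes outside the list added the initiation factor subunits EIF3A, with 347, 496 and 410 counts (6969 ± 563 CPM), and EIF2 BETA, with 183, 237 and 230 counts (3623 ± 105 CPM). These were 3.72 and 4.06 log2 units higher in the count files than in the authors' deposited table. The 4 ribosomal RNA loci held 3.40%, 3.70% and 4.17% of replicates 1, 2 and 3, and 10.6% by the authors' deposited table. The 18S loci AT2G01010 and AT3G41768 had 628, 942 and 1043, and 590, 910 and 1066 counts. Copies of rRNA genes are near identical, so the 2 loci cannot be taken apart.

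Among the genes listed for a family, few carried most of the counts. The genes listed need not be the whole family. FBR12 held 99.9 ± 0.13% of the counts of 3 eIF5A genes, and EIF4A1 held 99.4 ± 0.20% of the counts of the 2 eIF4A genes listed (SD, n = 3). The authors' deposited table gives them 97.6% and 88.5%. In the 4 genes of elongation factor EF-1-alpha, which brings aminoacyl-tRNA to the ribosome, AT5G60390 held 56.2 ± 2.7% and AT1G07920 held 29.6 ± 1.6%. These 4 genes are near-identical copies, so the shares are uncertain.

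Acetyl units from stored oil pass to sugar through the glyoxylate cycle and gluconeogenesis. Of the 9 genes of the glyoxylate cycle and gluconeogenesis 7 (77.8%) were among the 738, and the list summed to 11930, 12262 and 11773 CPM, a mean of 1.2 ± 0.025% of a library. ICL, isocitrate lyase, the first enzyme particular to the glyoxylate cycle, had 277, 414 and 345 counts (5745 ± 443 CPM). The authors' deposited table puts ICL at 14983 CPM, its highest protein-coding gene. MLS, malate synthase, had 108, 156 and 151 counts (2298 ± 76.1 CPM), and PCK1, the phosphoenolpyruvate carboxykinase that starts gluconeogenesis, had 92, 92 and 121 counts (1713 ± 286 CPM). The peroxisomal malate dehydrogenase PMDH1 had 42, 55 and 59 counts (867 ± 44.2 CPM). The 3 libraries of MLS and PMDH1 were close, and PCK1 was lower in replicate 2 than in the other two. Per length the order of these 4 was ICL with 2596, MLS with 1135, PCK1 with 663 and PMDH1 with 434 CPM per kb, and no neighbours in this order overlapped in their mean ± SD.

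Beta-oxidation, the step before, had a smaller share of its genes included. Of 13 genes 4 were among the 738, and the list summed to 2253 ± 127 CPM. The thiolase PKT3, which releases acetyl-CoA, had 24, 39 and 41 counts (571 ± 73.2 CPM). The acyl-CoA oxidase ACX2 had 27, 34 and 25 counts (484 ± 85.9 CPM), catalase CAT2 had 13, 33 and 31 counts (414 ± 128 CPM) and the multifunctional enzyme MFP2 had 13, 18 and 24 counts (303 ± 59.8 CPM). All 13 genes were detected in at least 1 library. AVP1, the vacuolar proton pyrophosphatase, whose loss is known to hold back gluconeogenesis in seedlings, had 141, 218 and 199 counts (3081 ± 195 CPM).

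A single gibberellin gene was included. GA3OX2, the enzyme for the last step to bioactive gibberellin, had 327, 412 and 307 counts (5879 ± 1005 CPM). It held 98.4% of the summed level of the 10 biosynthesis genes, and no other of the 10 was among the 738. GA3, the ent-kaurene oxidase, had 2, 6 and 3 counts, and GA3OX1 had 1, 1 and 2. GA1, GA2 and the 3 GA20OX genes had 0 counts in each library. The level of GA3OX2 is one of those on which the sources differ, since the authors' deposited table gives it at 254 CPM, 4.53 log2 units lower. Replicate 3 was the lowest of the 3 libraries, at 4756 CPM against 6691 and 6191.

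**Figure D2:**
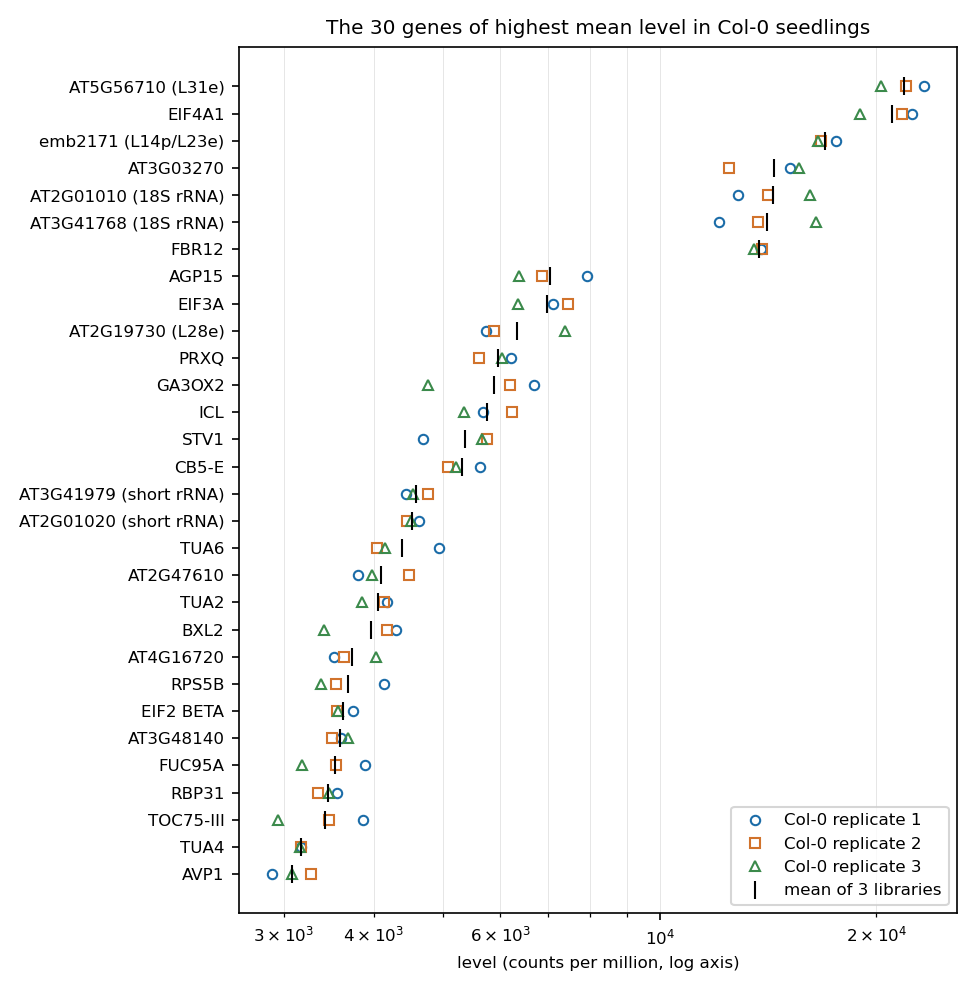
Level of the 30 genes of highest mean level, in CPM on a log axis, with 1 symbol for each of the 3 Col-0 libraries and a bar at their mean. The 3 libraries of a gene sit close together compared with the range from 3081 to 21884 CPM, and the widest relative spreads are those of GA3OX2 and the 18S locus AT3G41768.

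Tubulins build microtubules and actins build filaments that carry growth and transport in the cell. Of 22 tubulin and actin genes 11 were among the 738, and the list summed to 21098, 19190 and 19224 CPM. Among the alpha-tubulins, whose proteins pair with beta-tubulins into microtubules, TUA6 had 241, 269 and 268 counts (4375 ± 485 CPM), TUA2 had 204, 275 and 249 (4055 ± 172 CPM) and TUA4 had 155, 211 and 204 (3168 ± 6.45 CPM). TUA6 held 35.7 ± 2.1% of the counts of the 6 alpha-tubulin genes, TUA2 33.2 ± 1.4% and TUA4 25.9 ± 1.3%, so the first pair lay about 1 SD apart. The authors' deposited table gives TUA6, TUA2 and TUA4 at 1069, 611 and 621 CPM. TUB3 had 149, 187 and 186 counts (2913 ± 123 CPM), which was 50.5 ± 0.44% of the 9 beta-tubulin genes. ACT2 had 63, 65 and 68 counts and held 60.4 ± 4.6% of the counts of the 7 actin genes listed. TUA2 and TUA4, and TUB2 and TUB3, are near-identical copies whose shares are uncertain. The authors' deposited table gives TUB3 26.2% and ACT2 40.9% of the same sets of genes.

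Wall-loosening proteins were present at moderate level, with 5 of 15 genes among the 738 and a summed 2367 ± 90.2 CPM. The expansin EXPA9, of the proteins that let walls extend, had 20, 31 and 26 counts (426 ± 34.7 CPM) and EXPA10 had 22, 19 and 14 (318 ± 120 CPM). The expansin EXP3 had 14, 14 and 27 counts (305 ± 105 CPM), and the xyloglucan endotransglucosylase XTH31 had 17, 15 and 27 (330 ± 97.6 CPM). Of the 7 alpha-expansin genes listed no one dominated. EXPA9 held 29.1 ± 2.7%, EXPA10 21.7 ± 8.1%, EXP3 20.8 ± 7.0% and EXPA2 16.3 ± 5.4% of their counts. The authors' deposited table puts EXPA2 first of the 7, with 35.2%, and gives EXPA9 17.5%. Outside the list, AGP15, an arabinogalactan protein of the cell surface, had 387, 456 and 411 counts (7046 ± 794 CPM). The beta-xylosidase BXL2 had 210, 278 and 220 counts (3961 ± 483 CPM), and FUC95A, a fucosidase acting on xyloglucan, had 190, 236 and 205 (3537 ± 356 CPM). AGP15 and FUC95A were 3.90 and 4.65 log2 units higher in the count files than in the authors' deposited table.

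Aquaporins are water channels. Of 13 plasma membrane aquaporins 3 (23.1%) were among the 738, where 2.74% of all protein-coding genes were. PIP3 had 30, 31 and 40 counts (566 ± 87.2 CPM), PIP1B had 18, 20 and 19 (321 ± 41.1 CPM) and PIP2A had 10, 17 and 17 (241 ± 31.9 CPM). None of the 7 tonoplast aquaporins was among the 738. DELTA-TIP came nearest with 15, 13 and 9 counts (214 ± 85.3 CPM), against 39.3 CPM in the authors' deposited table. TIP3;1, a channel of the seed vacuole, had 0, 0 and 1 counts, and BETA-TIP, the other seed form, had 0 in each library.

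The nuclear genes listed for photosynthesis were all detected. All 43 nuclear genes for the photosystems, antennae and the small subunit of Rubisco had a count in at least 1 library. Of all 33602 genes 12731 had one. Of the 43, 13 (30.2%) were among the 738, where 2.74% of all protein-coding genes were. The list summed to 11173, 9587 and 9124 CPM. RBCS1A, a small subunit of Rubisco, the enzyme that fixes carbon dioxide, had 108, 150 and 147 counts (2247 ± 34.1 CPM). It held 69.2 ± 5.1% of the counts of the 4 RBCS genes, of which 1B, 2B and 3B are near-identical copies. The photosystem I subunits PSAF, PSAL and PSAD-1 had 29, 37 and 28, 33, 29 and 27, and 30, 29 and 28 counts. Of 16 genes of chlorophyll synthesis 3 were among the 738, led by HEMB1, which makes porphobilinogen, with 21, 32 and 25 counts (433 ± 46.9 CPM). GSA2 had 11, 22 and 19 counts and ALB1, a subunit of magnesium chelatase, 14, 18 and 11. PORA, the protochlorophyllide reductase of dark-grown seedlings, had 0 counts in each library. Plastid genes outside the lists were among the leading 30. The peroxiredoxin PRXQ had 303, 373 and 390 counts (5949 ± 308 CPM), RBP31, an RNA-binding protein of the chloroplast, had 174, 223 and 224 (3461 ± 105 CPM), and TOC75-III, the channel through which proteins enter the plastid, had 189, 231 and 190 (3427 ± 464 CPM). The authors' deposited table gives these 3 genes at 341, 510 and 307 CPM.

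In amino acid metabolism, the methionine cycle was represented by 5 of 12 genes among the 738 and a summed 6919 ± 175 CPM. The methionine synthase ATMS1 had 99, 118 and 118 counts (1876 ± 133 CPM), which was 97.0 ± 1.6% of the 3 synthase genes. HOG1, which removes S-adenosylhomocysteine, had 89, 90 and 108 counts (1616 ± 240 CPM), MTO1, the cystathionine gamma-synthase at the entry to methionine synthesis, had 65, 96 and 81 (1342 ± 94.5 CPM), and the S-adenosylmethionine synthetase MTO3 had 40, 66 and 53 (877 ± 99.3 CPM). MTO1 stands at 273 CPM in the authors' deposited table. Of 22 genes of glycolysis and fermentation 5 were among the 738. The aldolase FBA8 had 75, 123 and 113 counts (1711 ± 160 CPM), or 94.3 ± 1.8% of the 5 cytosolic aldolase genes. The glyceraldehyde 3-phosphate dehydrogenases GAPC2 and GAPC1 had 39, 73 and 67 and 24, 42 and 43 counts. The enolase ENO1 had 37, 66 and 46 counts (821 ± 150 CPM), against 46.7 CPM in the authors' deposited table. Catalase CAT3, with 37, 58 and 32 counts (708 ± 193 CPM), and CAT2 were the 2 of 15 antioxidant genes among the 738.

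Proteins that fold, tag and break down other proteins were also among the 738. Of 15 chaperone genes 8 were included, with a summed 9335 ± 333 CPM. HSC70-1, the main cytosolic HSP70, had 124, 185 and 172 counts (2661 ± 121 CPM). The HSP90 genes HSP81-2 and HSP81-3 had 103, 134 and 141 (2102 ± 85.4 CPM) and 37, 49 and 39 counts (699 ± 83.0 CPM), and the plastid chaperonin subunit CPN60A had 83, 126 and 131 (1874 ± 166 CPM). The ubiquitin genes UBQ5, UBQ10 and UBQ1 had 1279 ± 183, 1060 ± 120 and 912 ± 40.4 CPM, and the metallothionein MT2A had 709 ± 121 CPM. Of 13 proteases 4 were included. RD21B had 61, 57 and 60 counts (1011 ± 208 CPM), CP1 had 51, 51 and 56 (892 ± 140 CPM), RD21A had 40, 48 and 60 (823 ± 104 CPM) and RD19 had 28, 29 and 27 (476 ± 84.7 CPM). These 4 are papain-like cysteine proteases.

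RNA-binding and chromatin proteins followed. Of 7 glycine-rich RNA-binding proteins 5 were among the 738, which included the cold shock protein GRP2 with 83, 79 and 104 counts (1499 ± 274 CPM) and the clock-controlled GRP7 with 62, 92 and 86 (1328 ± 57.0 CPM). CCR1, the gene also known as GRP8, had 47, 58 and 62 counts (931 ± 51.7 CPM), and CSDP1 had 13, 35 and 28 (409 ± 132 CPM), against 91.3 CPM for CSDP1 in the authors' deposited table. Of 48 genes with a histone or histone superfamily product name 8 were among the 738. The name also takes in proteins with a histone fold that are not histones, such as the seed regulator LEC1, with 0 counts in each library. AT1G09200 had 38, 48 and 44 counts (727 ± 48.2 CPM), the H2A variant gene H2AXA had 23, 28 and 32 (462 ± 38.2 CPM) and the H2B genes HTB4 and HTB9 had 26, 22 and 32 and 21, 24 and 36. Histone genes have many near-identical copies, so single copies are uncertain. Of 23 genes of the cell cycle and DNA replication 1 was included, TSO2, a ribonucleotide reductase subunit that makes deoxyribonucleotides, with 11, 21 and 14 counts (253 ± 54.8 CPM). The share of 4.35% is near the 2.74% of all protein-coding genes. The counts of the other 22 genes were too low to enter, and 7 of the 23 had 0 in every library.

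Defence genes of the glucosinolate system had 4 of 17 members. PBP1, a lectin that binds the beta-glucosidase PYK10, had 78, 121 and 119 counts (1753 ± 136 CPM), and PYK10, the main protein of the ER body, had 35, 39 and 40 (641 ± 67.6 CPM). PYK10 was the gene with the largest difference in the other direction, since the authors' deposited table puts it at 5115 CPM, 3.00 log2 units above the count files. NAI2, needed to form ER bodies, had 22, 27 and 28 counts (430 ± 22.5 CPM), and the nitrile specifier NSP1 had 15, 19 and 28 (342 ± 80.1 CPM). Of 11 lipid transfer genes 1 (9.09%) was included, where 2.74% of all protein-coding genes were. This was ELP, with 31, 39 and 27 counts (546 ± 113 CPM).

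Genes of seed maturation held few counts. None of the 16 genes of seed storage proteins and oil bodies was among the 738, and the list held 14, 5 and 11 counts in replicates 1, 2 and 3. Their highest was the seed peroxiredoxin PER1 with 6, 2 and 2 counts. The cruciferin CRA1 had 1, 1 and 2 counts and the oleosin OLEO1 had 1, 0 and 2. Of 21 late embryogenesis abundant and dehydrin genes 2 (9.52%) were included. SAG21, a LEA protein, had 32, 53 and 69 counts (840 ± 210 CPM), lowest in replicate 1, and the dehydrin COR47 had 14, 23 and 16 (293 ± 49.2 CPM). None of the 22 Aux/IAA genes was included, although 14 were detected, and the nearest was IAA9 with 9, 11 and 14 counts. None of 14 core hypoxia genes was included. Their highest was the haemoglobin HB1 with 16, 3 and 14 counts, and ADH1 had 6, 2 and 4. Of all protein-coding genes 2.74% were among the 738, so none of 16, 22 or 14 genes is near that share. In the authors' deposited table the seed storage and oil body list summed to 284 CPM, against 177 CPM here. The late embryogenesis list summed to 2640 CPM there and 1731 CPM here. The Aux/IAA list summed to 586 and 570 CPM, and the hypoxia list to 1345 and 716 CPM.

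**Figure D3:**
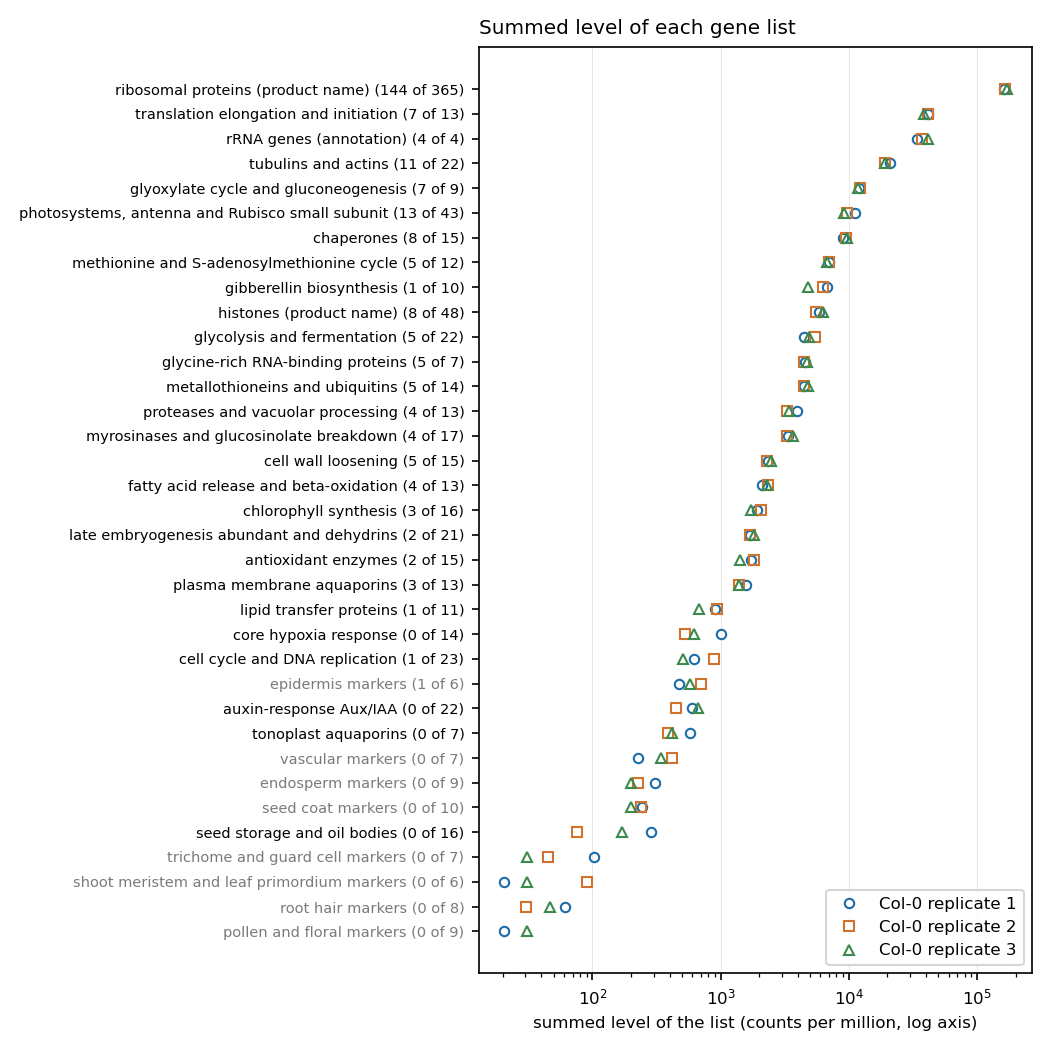
Summed level of each gene list in CPM on a log axis, with 1 symbol for each of the 3 Col-0 libraries. The numbers beside a name give the genes of the list among the 738 and the genes in it, lists of cell type markers are in grey, root cap markers with 0 counts in every library are left off, and a library at 0 has no symbol. Ribosomal proteins sum to 165822 CPM, and the lists from seed storage downward sum to under 300 CPM in each library.

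Markers of single cell types were sparse in the whole seedling. The 9 endosperm markers held 15, 15 and 13 counts, of which EPR1 had 4, 9 and 5 and GASA6 had 6, 4 and 8, while MEA, FIS2 and FWA had 0 in each library. The 10 seed coat markers held 12, 16 and 13 counts, most in BXL1 and MUM4, and BAN, TT10, TT12 and TT2 had 0. The 8 root hair markers held 3, 2 and 3 counts, the 6 shoot meristem and leaf primordium markers 1, 6 and 2, the 7 trichome and guard cell markers 5, 3 and 2, the 7 vascular markers 11, 28 and 22, and the 9 pollen and floral markers 1, 0 and 2. The 4 root cap markers held 0 in each library. The 6 epidermis markers held 23, 47 and 37 counts, and 1 of them was the only marker among the 738. This was KCS10, which elongates fatty acids for the cuticle, with 10, 12 and 16 counts (211 ± 34.2 CPM). PDF1 had 9, 16 and 16 counts and LP1 had 3, 12 and 4. PDF2 had 1, 6 and 1, ATML1 had 0, 1 and 0, and KCS6 had 0 in each library. The authors' deposited table gives PDF2, ATML1 and KCS6 at 90.0, 72.8 and 50.6 CPM. It sums the 6 epidermis markers to 1239 CPM, against 583 CPM here. The 7 vascular markers went the other way, with 102 CPM there and 329 CPM here. At this depth a marker at 0 in 1 library may be present there up to the floor given above, and 0 in all 3 libraries allows less. In whole seedlings, few cells of a type and little RNA per cell cannot be told apart.

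Other leading genes belonged to none of the lists, which hold 250 of the 738 genes. Of the leading 30 genes 12 were outside the lists. AT3G03270, annotated as a member of the adenine nucleotide alpha hydrolase-like superfamily, had 741, 830 and 1007 counts (14412 ± 1693 CPM), with replicate 2 below the other two. It was 4.80 log2 units lower in the authors' deposited table. CB5-E, a cytochrome b5 that passes electrons to enzymes of the endoplasmic reticulum, had 275, 338 and 336 counts (5304 ± 287 CPM), against 523 CPM in the authors' deposited table. AT3G48140, annotated as a B12D protein, had 176, 233 and 238 counts (3597 ± 92.8 CPM).

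Ranking by level per length changed the order in part. Over all 738 genes, 23 of the leading 30 by CPM were also among the leading 30 by CPM per kb, and 8 of the leading 10. The 10 highest per kb were AT5G56710, the short rRNA loci AT3G41979 and AT2G01020 with 27933 and 27603 CPM per kb, emb2171 with 18319, FBR12 with 14210, EIF4A1 with 10052, the 18S loci AT2G01010 and AT3G41768 with 7958 and 7792, AT2G19730 with 7791 and AT3G03270 with 7561. The last 4 differed by less than their SD of 888 to 1244 CPM per kb. Across the 731 protein-coding genes, level in CPM and transcript length had a Spearman correlation of -0.09. The genes share libraries and are not independent replicates.

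The index of dispersion of a gene, the chi-square of its counts over 2 degrees of freedom given the library totals, has a mean of 1 and a median of 0.693 when counting is the only source of spread. Over the 738 its mean was 1.21 and its median 0.773, both slightly above counting error. The 738 were chosen by their smallest count in the same 3 libraries, which leaves out some genes with 1 low library. The values in this paragraph are not corrected for that choice. The median coefficient of variation was 16.4%. An index over 3 was found for 55 genes (7.45%), where counting error alone gives 4.98% or 36.7 genes. Among the leading 100, where counting error is small, 19 had an index over 3. The common dispersion estimated by edgeR over the 738 was 0.00499, a biological coefficient of variation of 7.07%. Taken in pairs, the libraries had a mean index of 0.975 for replicates 1 and 2, 1.28 for replicates 1 and 3 and 1.34 for replicates 2 and 3. Replicates 1 and 2 therefore differed over these genes by no more than counting error on average, while single genes between them did differ and their totals were unequal. They were counted as 2 samples, as the series design states. The pairwise Pearson correlation of log2 CPM across the 738 genes was 0.937 to 0.946.

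The genes that varied most were named by the index. AT3G41768 was highest with an index of 20.5 and levels of 12073, 13675 and 16513 CPM in replicates 1, 2 and 3. The other 18S locus, AT2G01010, had an index of 10.9, and both were highest in replicate 3 and lowest in replicate 1. AT3G03270 had an index of 12.8. AT5G57290, a 60S acidic ribosomal protein, had 62, 63 and 126 counts and an index of 12.2, with replicate 3 apart. GA3OX2 had an index of 10.3 and EIF4A1 one of 9.48, both lowest in replicate 3. ROC3, a cyclophilin, had 134, 161 and 234 counts (index 8.54), and AT3G47836, an uncharacterized protein, had 33, 75 and 97 (index 8.36). Of the 55 genes with an index over 3, 20 were highest in replicate 1, 12 in replicate 2 and 23 in replicate 3. The part of RNA preparation in these differences was not tested.

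**Figure D4:**
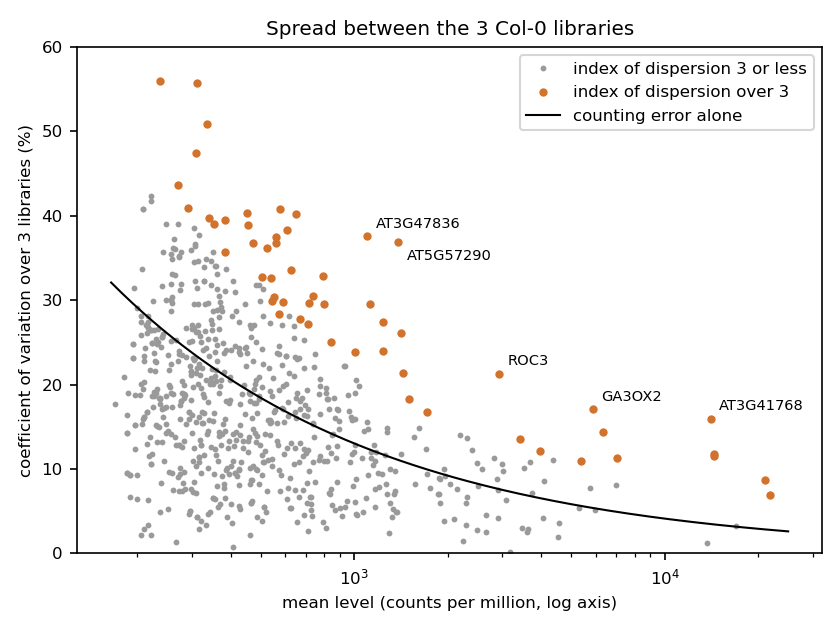
Coefficient of variation over the 3 Col-0 libraries (y axis, percent) against mean level in CPM (x axis, log scale) for the 738 genes, with a line for the value that counting error alone gives. The line is the expected standard deviation over the mean, single genes scatter on both sides of it, and the 55 with an index of dispersion over 3 are in orange.

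The authors' deposited table ordered the described genes differently from the count files. Across the 738 genes the Spearman correlation of the 2 levels was 0.414, as a description over genes that share libraries. The median difference was 0.84 log2 units higher in the count files, whose counts chose the 738, which leans the difference upward. The difference ranged from -3.00 to 5.42. Its median was -0.50 for the 144 ribosomal protein genes and 0.61 for the 13 photosynthesis genes. For the leading 30, which the count-file level itself chose and so leans toward high differences, it was 2.63. Genes with 1 exon and with more than 1 exon had medians of 0.82 and 0.84. ABCC4, an ABC transporter named after its values were seen, had the largest difference among the 738. It had 97, 141 and 112 counts (1946 ± 195 CPM) against 45.4 CPM in the authors' deposited table. The 30 genes of highest level in the authors' deposited table were all among the 738, as were 97 of its leading 100 and 335 of its leading 500. Rank for rank, 10 of its leading 30, 43 of its leading 100 and 266 of its leading 500 were in the leading set of the same size here.

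**Figure D5:**
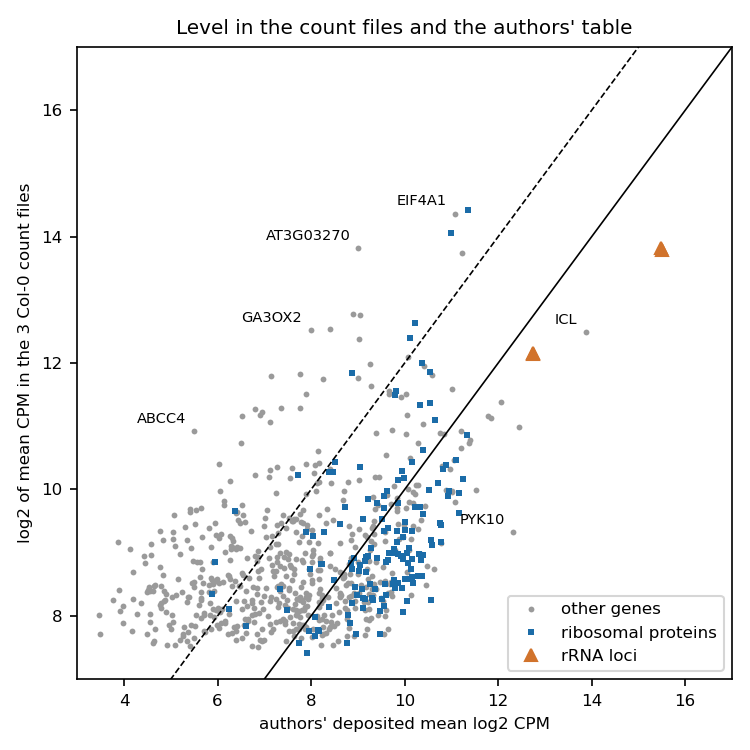
Log2 of the mean CPM in the 3 Col-0 count files (y axis) against the authors' deposited mean log2 CPM (x axis) for the 738 genes. The solid line marks equal levels and the dashed line a level 2 log2 units higher in the count files, beyond which 220 genes lie. Ribosomal proteins (blue) lie near the solid line in the main, and the rRNA loci (orange) lie under it.

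The limit of 10 counts ran through a continuous range. At a smallest count of exactly 10 stood 60 genes, with mean levels of 170 to 311 CPM. Among them were AT2G47440 with 10, 34 and 14 counts, AT5G28060 with 10, 21 and 26, AT1G75810 with 13, 26 and 10 and PDIL1-3 with 15, 22 and 10. The authors' deposited table gives AT2G47440 and AT1G75810 at 50.2 and 15.2 CPM. At a smallest count of 9 stood 83 genes, with mean levels of 158 to 310 CPM, such as AT2G40510 with 9, 26 and 23 counts, NARA5 with 9, 25 and 22, PPI1 with 9, 23 and 18 and RBCS2B with 18, 20 and 9. The 2 sets overlap in level. VIL1, the gene mutated in the other genotype of the series, had 0 counts in each Col-0 library and stood at 14.2 CPM in the authors' deposited table, under the level that a count of 0 allows.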

How the data were processed

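RNA was measured in whole 1-day-old seedlings, and the 3 Col-0 libraries, grouped and numbered by their titles, were used here. The authors deposited raw counts for 33602 genes in each library, in whole numbers and not normalized. Bowtie2, featureCounts, edgeR and TAIR10 are named in the submitters' processing notes, with no versions. The sources used here give no library kit, strand setting, filter or treatment of reads with several matches, so reads of overlapping or antisense genes cannot be told apart. Mean log2 CPM values were taken from the authors' deposited table of 25005 genes, which compares the genotypes; its log2 fold changes, F scores and p-values, deposited by the authors, were not used.

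Levels are counts divided by the library total, without further scaling. Names, lengths, and promoters come from the RefSeq annotation of TAIR10.1, which held 32835 of the 33602 IDs; the other IDs held 8 to 12 counts per library. Python 3.11.15, pandas 2.3.3 and scipy 1.17.1 were used. Dispersion was estimated with edgeR 4.0.16 in R 4.3.3, tested on simulated data, and DESeq2 1.42.0 gave size factors as an alternative. Intervals and floors cover counting error only. With 1 group and no contrast, no test was made and no p-value is given.

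The members and the 27 function and 9 marker lists were chosen with earlier results of these data known. Of 472 symbols 462 matched a gene. Genes named are the 30 of highest CPM, the 10 of highest CPM per kb, up to 4 per list, the 8 of highest index, up to 4 on each side of the limit, and VIL1; lists of low level, families and promoters name further genes. Alternatives were other count limits, scalings, lengths and sets, and leaving out each library.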

Additional observations from a re-analysis of the deposited data

How the results depend on the processing

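Leaving out each replicate gave 776 to 903 genes with at least 10 counts in each remaining library, against 738, and 29 or 30 of the leading 30 remained. A limit of 5 counts gave 1317 genes, a limit of 20 gave 370 and a mean of at least 10 counts gave 982. With the gene of highest level left out of the total, the leading 10 held 11.8% and all genes described 62.4%. Without each replicate the leading 10 held 13.6 to 13.8% and all genes described 62.9 to 63.4%. The share of genes with an index of dispersion over 3 was 7.59 to 12.2% without 1 replicate, where the index has 1 degree of freedom and counting error alone gives 8.33%, and 3.01% over all genes with a count. It was 7.05% with TMM factors, 6.64% with DESeq2 size factors and 5.96% with libraries thinned to 48868 counts. The listed genes held 34.8% of a library and 31.9% when only those among the 738 were summed. For all 27 function lists the sum moved by less than 1 SD without any 1 replicate and with TMM factors, and for 22 of 27 it moved by more when only genes among the 738 were summed. Among the leading 100 the telo box stood in 20.8% of promoters, the G-box in 12.5%, the RY motif in 4.17% and TATAAA in 45.8%. No paired analysis was possible because a single group was described and no test was made. At this depth genes under about 170 CPM were not described, and the cause of the difference from the authors' deposited table was not tested.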
